A study of Mus musculus with 14 samples.

Results

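Tight junctions seal the space between neighbouring epithelial cells and set which ions and water pass there. The claudins are the membrane proteins that form the seal or, in some members, a channel through it, occludin (Ocln) lies beside them, and the immunoglobulin-like adhesion protein F11r (JAM-A) binds its partner on the next cell. Below the membrane, the scaffold protein ZO-1 (Tjp1) and the adaptor cingulin (Cgn) tie these proteins to actin. The genes described here are F11r, Cldn2, Cldn3, Cldn4, Cldn7, Cldn15, Ocln, Tjp1 and Cgn, 9 of 19051 named genes, read through 12 of 45248 probes on the arrays. They were chosen by symbol with the effect of Prox1 deletion on them already known, so their own genotype differences are given as a description, without a test; how many pass the threshold used for all genes is printed once, beside the share of all genes that do, and nothing is read from it. Other junction genes were tested.

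The cells were mouse intestinal organoids, epithelial cultures grown from the gut, of strain C57Bl and from animals of 2 to 3 months. All carried villin-CreER, a tamoxifen-activated Cre recombinase made in intestinal epithelium, with Apc flox/flox; the compared cultures carried Prox1 flox/flox as well. Tamoxifen was given for 2 days, R-Spondin1 was then withheld for 5 days so that cells without Apc were selected, and RNA was taken 7 days after tamoxifen. Both genotypes, called Apc-deleted and Apc-Prox1-deleted, have therefore lost Apc, the negative regulator of Wnt signalling, and differ in Prox1, a homeobox transcription factor. The labels name 2 series and 14 entries, and nothing there tells whether the replicates of a group came from different animals. The p-values below therefore reflect only how far these samples spread, and that spread may be technical. Of the 14 entries, 4 are copies of 2 arrays that appear under conflicting labels, and they were left out. Series 1 then held 4 Apc-deleted libraries and 2 Apc-Prox1-deleted ones, and series 2 held 2 of each.

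Levels are log2 values, on which the arrays' dim probes lie near 6.78, the median probe. Of the variance over the 10 libraries, 52.9% lay on the first principal component and 24.6% on the second, and 10 of 10 libraries matched another library of their own group best. The epithelial markers Krt8, with group means of 12.88 to 13.76, and Vil1, with 10.17 to 10.61, were bright, while the probe of Epcam, a defining epithelial marker, lay near the floor, with group means of 6.67 to 6.78. The defining markers of fibroblasts and endothelium, Col1a1 (6.64 to 6.71) and Pecam1 (6.74 to 6.8), lay near the floor in every group. On the endothelial list Esam, also a tight junction protein, was brighter, with group means of 8.55 to 8.96. None of 3 tested genes on either list passed the limma test, also at an unadjusted p under 0.05. Of 5 tested immune cell markers Cd14 (0.82, adjusted p = 0.000133) and Laptm5 (0.30, adjusted p = 0.00446) rose and Cd79b fell (-0.19, adjusted p = 0.0112). The defining immune marker Ptprc lay near the floor (6.7 to 6.8), and the summed level of the list was 9.52 to 9.63 in Apc-deleted and 9.92 to 9.94 in Apc-Prox1-deleted libraries of series 1, and 9.78 to 9.86 against 9.99 to 10.19 in series 2. The part of immune cells in the results was not tested. Prox1 itself, read through its brighter probe, was at 9.50, 9.42, 10.44 and 9.89 in the Apc-deleted libraries and at 7.85 and 8.29 in the Apc-Prox1-deleted libraries of series 1. In series 2 it was at 10.91 and 10.05 against 8.65 and 9.53. The groups did not overlap within either series, and Prox1 fell by 1.59 on the log2 scale over both series (SE 0.22, limma adjusted p = 0.000185). Its second probe fell by 1.48 (SE 0.19, limma adjusted p = 8.34e-05). That probe averaged 8.38 against 6.93 in series 1 and 8.63 against 7.10 in series 2, without overlap in either. The labels do not say which exons the deletion removes, so either probe may lie outside them.

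The stretch before the transcription start is shown for the genes with the largest differences, F11r and Cldn2, and for Cldn3 and Cldn4, which are neighbours on chromosome 5 with 0 genes between them. Each stretch is 250 bases, written 5′ to 3′ on the gene's own strand and ending at the base before the start, from RefSeq on GRCm38.p6, and all 9 genes matched that table. The stretches are chr1:171437311-171437560 (plus strand) for F11r, chrX:139800558-139800807 (plus strand) for Cldn2, chr5:134985964-134986213 (plus strand) for Cldn3 and chr5:134946935-134947184 (minus strand) for Cldn4. Capitals mark a match, on either strand, to CAAAG (the core read by TCF/LEF, the transcription factors of Wnt signalling), TTTATG (read by CDX factors), GGAATG (TEAD), CAGGTG (the E-box read by Snail and ZEB repressors) or AGATAA (read by factors of the GATA family).
F11r: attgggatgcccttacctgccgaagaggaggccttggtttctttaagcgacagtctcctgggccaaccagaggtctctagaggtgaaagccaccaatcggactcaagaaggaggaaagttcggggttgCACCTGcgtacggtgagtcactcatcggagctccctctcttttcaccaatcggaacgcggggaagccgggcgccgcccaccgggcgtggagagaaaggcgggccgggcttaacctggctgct
Cldn2: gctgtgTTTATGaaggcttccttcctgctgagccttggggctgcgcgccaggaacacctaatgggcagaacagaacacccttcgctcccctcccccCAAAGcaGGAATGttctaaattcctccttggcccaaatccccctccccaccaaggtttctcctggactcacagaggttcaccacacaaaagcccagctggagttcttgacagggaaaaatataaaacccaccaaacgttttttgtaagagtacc
Cldn3: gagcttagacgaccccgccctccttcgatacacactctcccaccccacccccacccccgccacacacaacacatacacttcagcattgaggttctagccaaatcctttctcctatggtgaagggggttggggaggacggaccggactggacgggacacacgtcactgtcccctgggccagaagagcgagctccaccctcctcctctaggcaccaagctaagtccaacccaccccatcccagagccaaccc
Cldn4: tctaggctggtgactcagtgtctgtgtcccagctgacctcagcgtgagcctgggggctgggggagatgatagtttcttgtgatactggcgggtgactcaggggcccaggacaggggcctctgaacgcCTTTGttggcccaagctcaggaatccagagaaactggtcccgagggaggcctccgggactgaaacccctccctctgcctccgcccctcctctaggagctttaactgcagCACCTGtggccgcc

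In these windows Cldn2 held CAAAG 154 bases, TTTATG 244 bases and GGAATG 147 bases before the start. F11r held CAGGTG on the minus strand, 122 bases before the start. Cldn4 held CAAAG 123 bases and CAGGTG 14 bases before the start, both on the minus strand. Cldn3 held none of the 5 words. Among 32851 promoter windows of the same length, CAAAG was present in 48.6%, CAGGTG in 17.2%, GGAATG in 12.6%, TTTATG in 10.8% and AGATAA in 9.99%, so each word is common. A match is a description of the letters and not a bound site, and nothing follows from a word that is missing. CpG content also differed: the window of F11r held 17 CpG dinucleotides, that of Cldn2 4, that of Cldn3 9 and that of Cldn4 7, against a median of 6 over all windows.

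F11r, the adhesion molecule, had the largest genotype difference of the 9 genes. In series 1 its log2 level was 7.41, 7.98, 7.71 and 7.75 in the Apc-deleted libraries and 9.81 and 9.85 in the Apc-Prox1-deleted libraries. In series 2 it was 8.53 and 8.55 in the Apc-deleted libraries and 10.08 and 9.33 in the Apc-Prox1-deleted libraries. Every Apc-Prox1-deleted library lay above every Apc-deleted one, across series (which appear to have been normalized separately) as well as within them. The 2 Apc-Prox1-deleted libraries of series 2 were the pair farthest apart. The difference over both series was 1.71 (SE 0.18), which is 3.27-fold. Within series 1 it was 2.12 (SE 0.19, 4.34-fold) and within series 2 it was 1.16 (SE 0.22, 2.23-fold). Without Apc-Prox1-deleted series 2 replicate 1, the higher of the pair, the series 2 difference was 0.78. In bulk RNA, more cells that express a gene and more of its RNA per cell cannot be told apart, here and below.

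Cldn2, a claudin that forms a channel for sodium and water and is best known from crypts, was higher in the Apc-Prox1-deleted libraries through both of its probes. Its brighter probe read 9.89, 9.96, 9.63 and 9.8 in Apc-deleted series 1 and 11.14 and 10.79 in Apc-Prox1-deleted series 1. In series 2 the readings were 9.64 and 10.06 against 10.94 and 11.69. All 4 Apc-Prox1-deleted libraries lay above all 6 Apc-deleted ones, with the same reservation across series. The difference was 1.28 over both series (SE 0.16, 2.43-fold), 1.15 in series 1 (SE 0.20) and 1.46 in series 2 (SE 0.24). The second Cldn2 probe gave 1.18 (SE 0.13) over both series, 1.11 (SE 0.18) in series 1 and 1.27 (SE 0.21) in series 2, so the probes differed by less than their standard errors.

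Within the Apc-Prox1-deleted pair of series 2, F11r and Cldn2 did not rank the libraries alike. Replicate 1 had the higher F11r (10.08) and the lower Cldn2 (10.94), and replicate 3 had the lower F11r (9.33) and the higher Cldn2 (11.69). Prox1 was 8.65 in replicate 1 and 9.53 in replicate 3 through its brighter probe, and 7.04 and 7.15 through its second probe. With 2 libraries this gives an order of values and no relation between genes.

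Cldn2 lies on the X chromosome, and the libraries differ in X- and Y-linked RNA, as seen in genes that were looked at after their values were known. Xist, the RNA of the inactive X chromosome, averaged 9.84 ± 0.39 (SD, n = 4) in Apc-deleted series 1 and 6.65 to 6.68 in the other 3 groups. The Y-linked Eif2s3y averaged 8.27 ± 0.06 (SD, n = 2) in Apc-Prox1-deleted series 1 and 6.72 to 7.03 elsewhere. Other Y-linked genes, near the floor, differed less. In series 1 Kdm5d averaged 6.69 in Apc-deleted and 6.99 in Apc-Prox1-deleted libraries (difference 0.30, limma adjusted p = 0.00242). Uty averaged 6.92 and 7.00 there (difference 0.08, limma adjusted p = 0.605). In series 1 the genotype and this sex-linked difference cannot be told apart, for Cldn2 or for any other gene. The differences over both series draw on series 1 and share this limit. In series 2 Xist lay near the floor in both genotypes, Eif2s3y was at 7.03 ± 0.07 in Apc-deleted and 6.72 ± 0.01 in Apc-Prox1-deleted libraries (SD, n = 2 each; difference -0.30, adjusted p = 0.0672), and the Cldn2 difference was 1.46. The part of sex-linked expression in the Cldn2 values of series 2 was not tested.

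**Figure D1:**
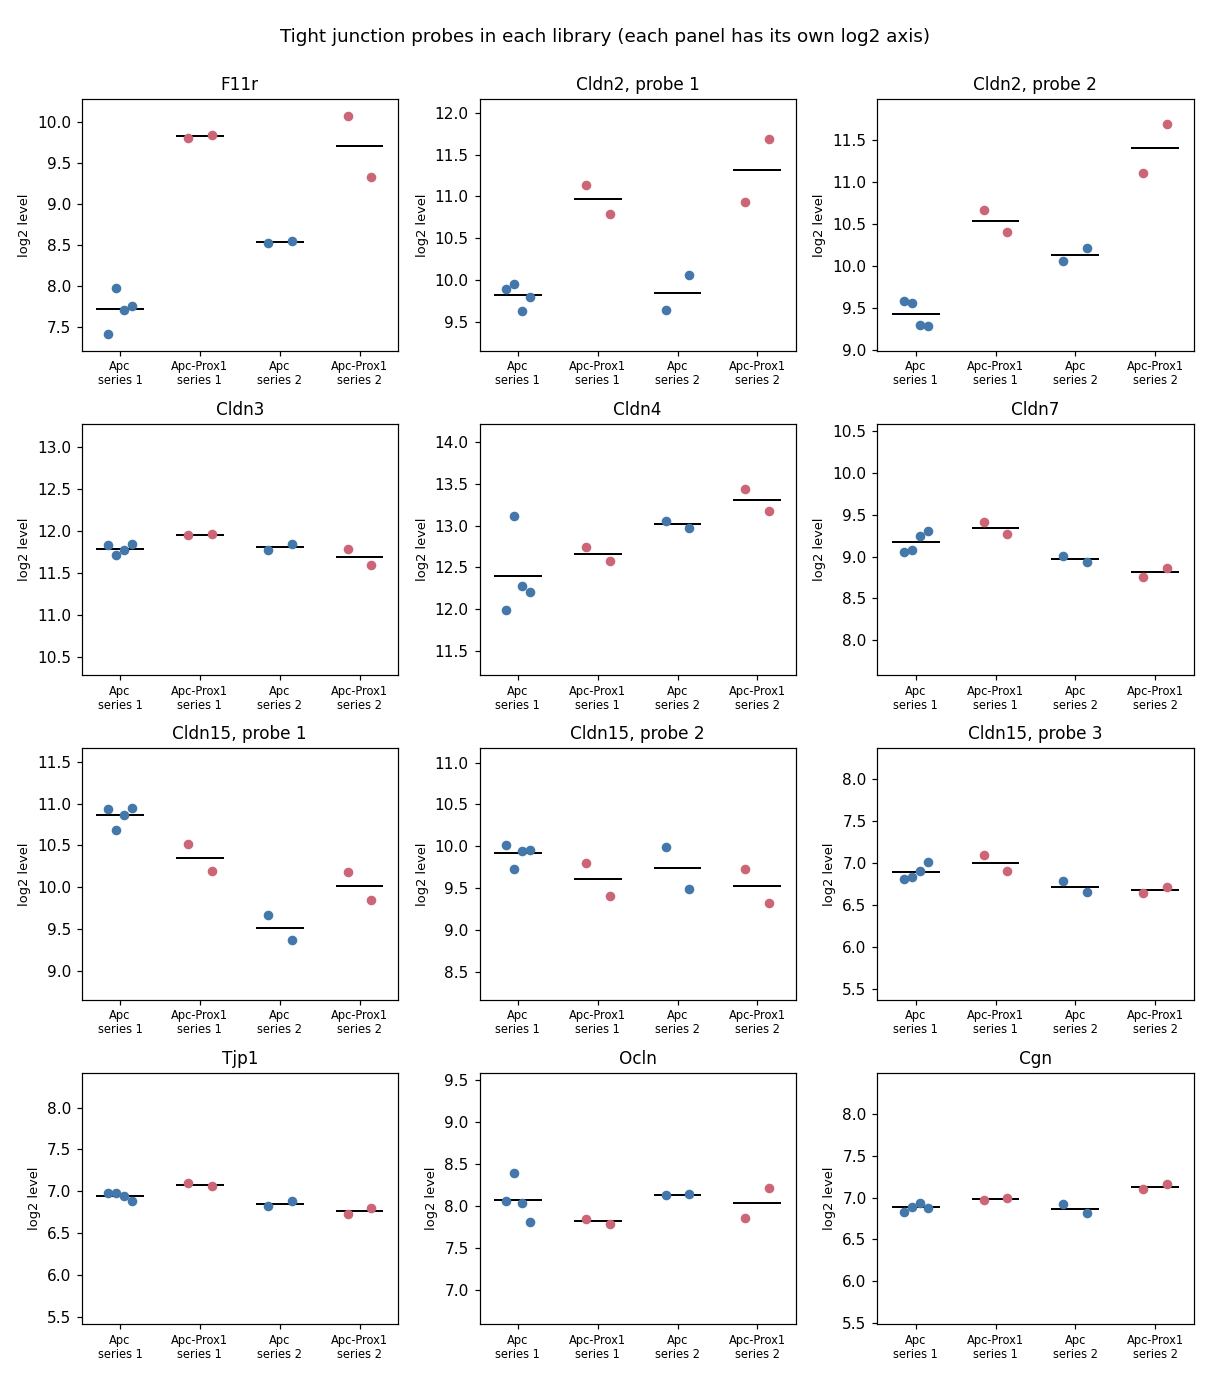
Log2 level of each of the 12 tight junction probes (vertical axes, each panel with its own range) in the 10 libraries, split by genotype and series on the horizontal axis; points are libraries and bars are group means. F11r and both Cldn2 probes separate the genotypes in both series, with F11r between 7.41 and 8.55 in Apc-deleted and between 9.33 and 10.08 in Apc-Prox1-deleted libraries, while the libraries of Cldn3 span 11.60 to 11.96 and the Cgn groups are apart in both series by 0.10 and 0.26.

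Cldn3, Cldn4 and Cldn7, claudins of the intestinal epithelium that form the seal, differed little between the genotypes. Cldn3 read 11.83, 11.71, 11.77 and 11.85 in Apc-deleted series 1 against 11.95 and 11.96 in Apc-Prox1-deleted series 1, and 11.77 and 11.85 against 11.79 and 11.60 in series 2. The groups were apart by a narrow margin in series 1 and overlapped in series 2, and the difference was 0.05 over both series (SE 0.10), with 0.17 in series 1 and -0.11 in series 2. Its 10 libraries span 11.60 to 11.96, a narrow range beside that of Cldn2.

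Cldn4 read 11.99, 13.11, 12.28 and 12.21 in Apc-deleted series 1 and 12.74 and 12.58 in Apc-Prox1-deleted series 1. In series 2 it read 13.06 and 12.97 against 13.44 and 13.17. In series 1 Apc-deleted replicate 2, at 13.11, lay above both Apc-Prox1-deleted libraries, and in series 2 the genotypes did not overlap. The difference was 0.27 over both series (SE 0.16), 0.26 in series 1 (SE 0.21) and 0.29 in series 2 (SE 0.25). Without Apc-deleted series 1 replicate 2 it was 0.41 over both series and 0.50 in series 1. That library held the highest F11r (7.98) and the highest Ocln (8.40) of its group as well.

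Cldn7 read 9.05, 9.08, 9.25 and 9.30 against 9.41 and 9.27 in series 1, and 9.01 and 8.94 against 8.76 and 8.86 in series 2. The Apc-Prox1-deleted libraries overlapped with the others in series 1 and lay below them in series 2. The difference was 0.03 over both series (SE 0.11), with 0.17 (SE 0.14) in series 1 and -0.17 (SE 0.16) in series 2.

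Cldn15, a claudin that forms a sodium channel in the small intestine, is read by 3 probes that did not agree. The brightest gave 10.94, 10.68, 10.87 and 10.95 in Apc-deleted series 1 against 10.52 and 10.19 in Apc-Prox1-deleted series 1. In series 2 it gave 9.67 and 9.37 against 10.18 and 9.85. The Apc-Prox1-deleted libraries were below the Apc-deleted ones in series 1, by 0.50 (difference -0.50, SE 0.17), and above them in series 2 (difference 0.49, SE 0.20), and over both series the difference was -0.08 (SE 0.17).

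The second Cldn15 probe gave 10.02, 9.73, 9.95 and 9.96 against 9.80 and 9.41 in series 1 and 9.99 and 9.49 against 9.73 and 9.32 in series 2. Its groups overlapped in both series, and its difference was -0.31 (SE 0.18) in series 1 and -0.21 (SE 0.21) in series 2. The third probe lay near the floor, between 6.64 and 7.10, with overlapping groups and differences of 0.11 (SE 0.07) in series 1 and -0.04 (SE 0.08) in series 2. In series 2 the brightest probe was thus higher in the Apc-Prox1-deleted libraries, and the other probes had differences below 0 with overlapping groups. Of 6 tested absorptive enterocyte markers 5 fell in series 1. There the list's summed log2 level was 12.28 to 12.77 in Apc-deleted and 10.90 to 11.13 in Apc-Prox1-deleted libraries. In series 2, 0 rose and 0 fell, and the summed level was 10.54 to 10.87 against 10.33 to 11.21. The defining enterocyte genes Fabp1 and Fabp2 lay near the floor throughout. The part of enterocyte content in the Cldn15 values was not tested.

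Ocln, which lies beside the claudins in the membrane, read 8.06, 8.40, 8.03 and 7.81 in Apc-deleted series 1 against 7.85 and 7.78 in Apc-Prox1-deleted series 1, and 8.13 and 8.14 against 7.86 and 8.21 in series 2. The genotypes overlapped in both series, with a difference of -0.19 (SE 0.11) over both, -0.26 in series 1 and -0.10 in series 2.

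The cytoplasmic members Tjp1 and Cgn were read by dim probes, where a change in RNA is compressed towards the floor. Tjp1 read 6.98, 6.98, 6.95 and 6.88 against 7.10 and 7.06 in series 1, and 6.82 and 6.88 against 6.73 and 6.8 in series 2. The genotypes were apart in opposite directions, with differences of 0.13 (SE 0.06) and -0.08 (SE 0.07).

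Cgn read 6.83, 6.89, 6.93 and 6.88 against 6.97 and 6.99 in series 1, and 6.92 and 6.82 against 7.10 and 7.16 in series 2. The Apc-Prox1-deleted libraries lay above the others in both series, by 0.10 (SE 0.06) and 0.26 (SE 0.07), and the difference over both was 0.17 (SE 0.05, 1.12-fold). The recovery of log2 values from the deposited ratios left 2 possible scales for the probes of Tjp1, Cgn and the third Cldn15 probe in both series. The same holds for Ocln and the second Prox1 probe in series 2. The smaller scale was taken, so the levels and the differences of these probes could be larger than printed. That Tjp1, Cgn and the third Cldn15 probe are dim holds on the scale taken. Ocln and the second Prox1 probe had 1 scale in series 1, and the one taken in series 2 is the closer to it.

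**Figure D2:**
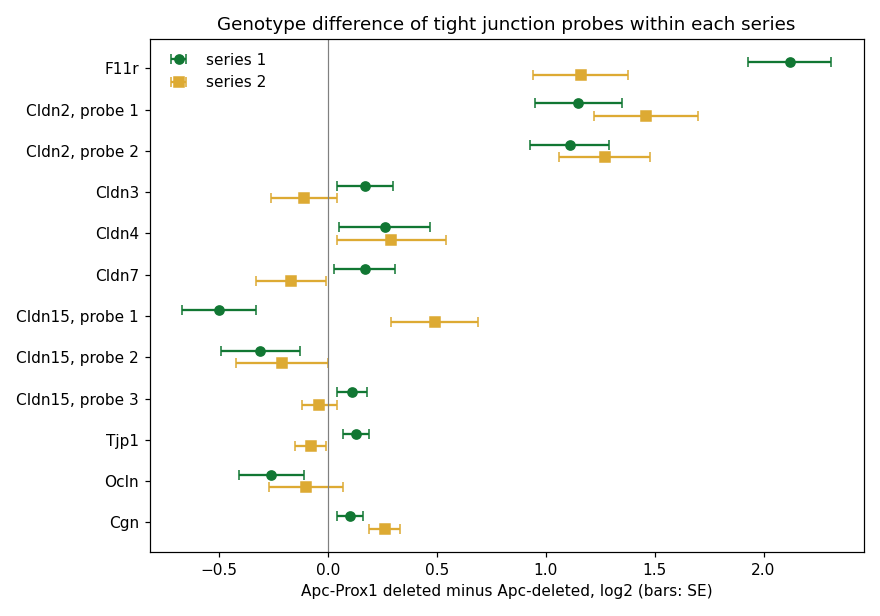
Genotype difference (Apc-Prox1-deleted minus Apc-deleted, log2, horizontal axis) of each tight junction probe, with series 1 as circles and series 2 as squares; bars are standard errors of the fit. F11r and both Cldn2 probes lie above 1 in both series (1.11 to 2.12), the brightest Cldn15 probe lies at -0.50 and 0.49, and the others lie between -0.31 and 0.29.

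Read through the brightest probe of each, the 9 genes had a median difference of 0.05 over both series, 0.17 in series 1 and 0.26 in series 2, and the median of all genes tested was 0.00179, -0.00134 and 0.005. The count past a limma adjusted p of 0.05 over both series was 3 higher (F11r, Cldn2 and Cgn) and 0 lower, beside 7.11% of all 13418 genes higher and 8.73% lower (15.8% either way, and 12.7% of all probes). In series 1 the count was 2 higher (F11r and Cldn2) and 0 lower, beside 4.72% of genes higher and 5.96% lower (10.7% either way, and 8.32% of probes). In series 2 it was 3 higher (F11r, Cldn2 and Cgn) and 0 lower, beside 2.09% higher and 3.09% lower (5.18% either way, and 4.12% of probes). F11r, Cldn2 and Cgn were also the genes whose Apc-Prox1-deleted libraries all lay above the others in both series, as did 8.16% of all genes, while 9.0% lay below in both. Cldn15 and Tjp1 were apart in opposite directions, as were 1.62% of all genes. Within series 1 alone 15.9% of all genes were apart upwards and 17.2% downwards, and within series 2, with 2 libraries against 2, 21.8% and 21.4%. Since this comparison was used to choose the genes, nothing is read from these counts. The counts also change with the setting. In series 1 the brightest Cldn15 probe, lower in Apc-Prox1-deleted libraries, was past the threshold in 4 of 18 alternatives. These were the filter met on all 10 libraries, all 14 entries, array weights, and Apc-deleted series 1 replicate 2 left out. Without that replicate Cldn4 was past it too, over both series and in series 1. Tjp1 was past it in series 1 with array weights. In series 2 F11r was not past the threshold with all 14 entries or with Apc-Prox1-deleted replicate 1 left out, and in series 1 Cldn2 was not with Apc-Prox1-deleted replicate 1 of that series left out (difference 0.97). Cgn was past it in 13 of 20 alternatives over both series and in 6 of 18 in series 2. Over both series it was not past it with all 14 entries, a replicate block or no series term, nor when replicate 2 of Apc-Prox1-deleted series 1, replicate 1 or 3 of Apc-Prox1-deleted series 2 or replicate 3 of Apc-deleted series 2 was left out, with differences of 0.14 to 0.20 over all libraries left out in turn. Within series 2 Cgn was not past it with cyclic loess, no further normalization, the deposited ratios, all 14 entries or array weights, nor with any 1 library left out other than replicates 1, 2 and 3 of Apc-deleted series 1, with differences of 0.21 to 0.32.

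Across the 10 libraries, with each series centred on its mean, F11r and Cldn2 correlated at r = 0.80, Cldn2 and Cgn at 0.81 and Tjp1 and Cldn15 at -0.84, as a description, since these libraries share the genotype difference. By the same measure, the genes whose pattern was most like that of F11r were Gtse1 (r = 0.995), Tbc1d2 (0.993) and Mdm2 (0.992). The gene most like Cldn2 was Get1 (0.989), and the one most like Cldn4 was Tuft1 (0.955). For the others the nearest gene was Hnrnpf for Cldn7 (0.969), Egr1 for Ocln (0.965), Stat3 for Cgn (0.965), Synm for Tjp1 (0.957), Tmprss13 for Cldn3 (0.941) and Dppa4 for Cldn15 (0.931).

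Other genes of the tight junction were tested next. For these and the junction genes below, genotype and the sex-linked difference cannot be told apart in series 1 either. Of 25 further membrane proteins listed, 17 passed the filter on dim probes, 3 of them were called higher over both series, 2 lower and 12 did not pass, with a median of 0.03. Of these 5 calls, those of Ildr2 and Cldn11 are not independent of the filter. Ildr1, which sits with its relative Ildr2 at the corners where 3 cells meet, rose by 0.38 (SE 0.07, adjusted p = 0.00241), with means of 6.99 and 7.33 in series 1 and of 6.86 and 7.30 in series 2. Ildr2 lay near the floor and passed the filter in 3 libraries, all Apc-Prox1-deleted, so its difference of 0.16 (SE 0.04) is a description. The junction adhesion protein Igsf5 (JAM4) rose by 0.39 (SE 0.12, adjusted p = 0.0453).

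Cldn23 fell by 0.59 (SE 0.14, adjusted p = 0.0117), with means of 8.94 ± 0.16 (SD, n = 4) and 8.57 ± 0.11 (SD, n = 2) in series 1 and of 9.39 ± 0.04 and 8.51 ± 0.49 (SD, n = 2 each) in series 2. Cldn11 passed the filter in 4 libraries, all Apc-deleted, at 6.85 or below, so its difference of -0.12 (SE 0.03) is a description too. Lsr, the tricellular receptor related to Ildr1, did not pass (0.14, SE 0.12, adjusted p = 0.534), nor did the junctional adhesion protein Cxadr (-0.18, SE 0.13, adjusted p = 0.438). The Igsf5 call was lost without any 1 of 6 libraries (adjusted p up to 0.2 without Apc-Prox1-deleted series 1 replicate 2).

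Of 20 tested scaffold and polarity genes, Cgnl1 rose and 19 did not pass, with a median of 0.08. Cgnl1 (paracingulin), the relative of Cgn, rose by 0.40 (SE 0.10, adjusted p = 0.018), with means of 7.77 and 8.10 in series 1 and of 7.16 and 7.64 in series 2. It no longer passed when Apc-Prox1-deleted series 1 replicate 1 was left out (0.0553), nor without replicate 1 of the Apc-Prox1-deleted libraries (0.0531) or replicate 3 of the Apc-deleted libraries (0.057) of series 2. Over these membrane and scaffold genes, 37 were tested, 4 were called higher and 2 lower (Ildr2 and Cldn11 among them). Their differences lay between -0.59 and 0.40, below those of F11r (1.71) and Cldn2 (1.28). F11r and Cldn2 were chosen with their differences known, so nothing is read from this order.

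Among 18 tested regulators of claudins and junctions 1 rose, 1 fell and 16 did not pass, with a median of 0.02. The membrane-anchored protease Prss8 (prostasin) rose by 0.40 (SE 0.12, adjusted p = 0.0442), a call lost without any 1 of 8 of the 10 libraries (adjusted p up to 0.147, without Apc-Prox1-deleted series 2 replicate 1). Snai2, the E-box repressor Slug, fell by 0.39 (SE 0.10, adjusted p = 0.0154), with means of 7.22 and 6.85 in series 1 and of 7.13 and 6.72 in series 2. It did not pass without Apc-deleted series 2 replicate 3 (0.0514) or with replicate 2 of the Apc-Prox1-deleted libraries of series 1 left out (0.0651). The protease inhibitor Spint1 (0.27, adjusted p = 0.0729) and the intestinal transcription factor Cdx2 (-0.32, adjusted p = 0.183) did not pass, though both did without Apc-deleted series 1 replicate 2 (0.0269 and 0.0461).

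In the adherens junction, the belt below the tight junction, 3 of 16 tested genes rose, 1 fell and 12 did not pass, with a median of 0.04. The catenins Ctnna1, which links cadherins to actin (0.41, SE 0.11, adjusted p = 0.0217), and Ctnnd1, or p120, which holds cadherins at the membrane (0.38, SE 0.10, adjusted p = 0.0219), rose. So did their partner Plekha7 (0.34, SE 0.08, adjusted p = 0.00727). The adhesion protein Nectin3 fell by 0.49 (SE 0.15, adjusted p = 0.0374), and its relative Nectin2 (0.02) and their scaffold Afdn (-0.05) did not pass. The calls of Ctnna1 and Ctnnd1 were lost without Apc-Prox1-deleted series 1 replicate 1 (0.0938 and 0.0694), without replicate 2 of that group (0.0898 and 0.115) or without Apc-deleted series 2 replicate 3 (0.0595 and 0.0645), and that of Nectin3 without any 1 of 7 libraries (up to 0.123, without Apc-Prox1-deleted series 2 replicate 1).

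In the desmosome, the rivet that anchors keratin filaments, 3 of 8 tested genes rose and 5 did not pass, with a median of 0.17. Periplakin (Ppl), a linker to those filaments, rose by 0.63 (SE 0.12, adjusted p = 0.00246), with means of 8.13 and 9.0 in series 1 and of 8.69 and 9.0 in series 2. The plakophilin Pkp3 (0.49, SE 0.10, adjusted p = 0.00319) and its relative Pkp4 (0.49, SE 0.11, adjusted p = 0.00934) rose as well, whereas the desmosomal cadherin Dsg2 (-0.26, adjusted p = 0.23) and Pkp2 (0.21, adjusted p = 0.431) did not pass. Pkp4 did not pass with replicate 2 of the Apc-Prox1-deleted libraries of series 1 left out (0.0529).

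Of 6 tested gap junction genes 1 rose and 5 did not pass. Gja1 (a connexin) rose by 0.82 (SE 0.11, adjusted p = 0.000162), with means of 6.84 ± 0.01 (SD, n = 4) and 7.96 ± 0.29 (SD, n = 2) in series 1 and of 6.84 ± 0.12 and 7.25 ± 0.11 (SD, n = 2 each) in series 2. Another connexin gene, Gjb2, did not pass (-0.30, adjusted p = 0.104), and Gja5 lay near the floor (0.01, adjusted p = 0.946).

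Over the 6 related lists together, 84 genes were tested, of which 12 were called higher and 4 lower, beside 7.11% and 8.73% of all genes tested. Ppl kept its call in 20 of 20 alternatives, and Gja1 and Ildr1 in each of the 19 in which they were tested. The counts include Ildr2 and Cldn11, which entered the test only through the genotype where they are high. With either Apc-Prox1-deleted library of series 1 left out, 6 genes were called higher in place of 12.

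**Figure D3:**
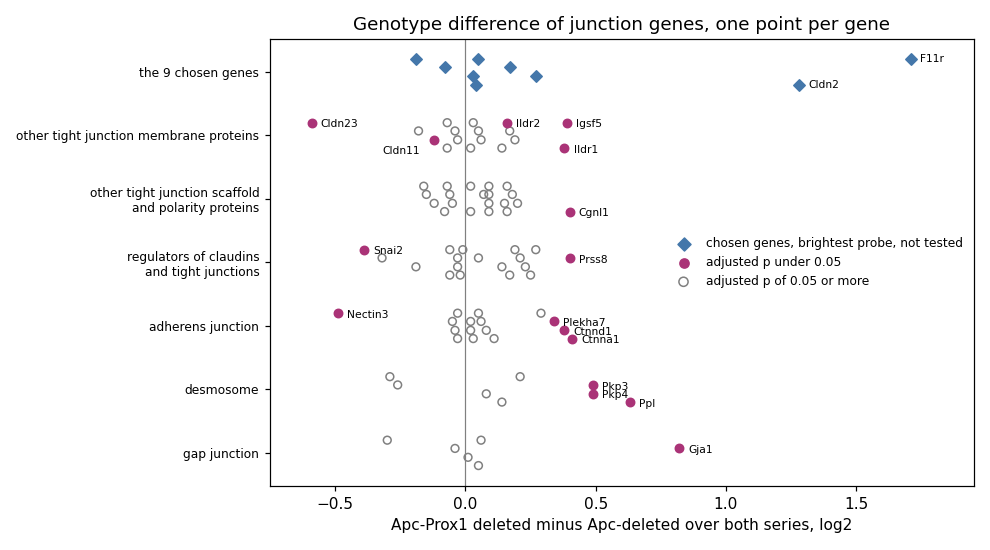
Genotype difference over both series (Apc-Prox1-deleted minus Apc-deleted, log2, horizontal axis) of every tested junction gene, 1 point a gene, by list on the vertical axis; diamonds are the 9 chosen genes through their brightest probe, filled circles have a limma adjusted p under 0.05 (Ildr2 and Cldn11 passed the filter only where they are high) and open circles do not. F11r (1.71) and Cldn2 (1.28), chosen with their differences known, lie to the right of all others, followed by Gja1 (0.82), while most points of each list lie within 0.3 of 0.

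Other cell types of the epithelium also differed between the genotypes. Of 7 tested enteroendocrine markers 0 rose and 5 fell over both series, and their summed log2 level was 11.76 to 12.23 in Apc-deleted and 10.67 to 10.84 in Apc-Prox1-deleted libraries of series 1, and 11.62 to 11.68 against 10.95 to 11.04 in series 2. Of 6 tested Paneth cell markers 3 fell (summed level 15.58 to 15.78 against 14.81 to 15.35 in series 1, and 15.32 to 15.66 against 15.05 to 15.11 in series 2), and of 5 tested stem cell markers 3 fell (13.12 to 13.37 against 12.72 to 12.80, and 13.10 to 13.30 against 12.78 to 12.89). Of 6 tested goblet cell markers 0 rose and 0 fell over both series, with median differences of -0.27 in series 1 and 0.34 in series 2. Among them Muc2 differed by -0.83 in series 1 and 0.61 in series 2 (limma interaction term, adjusted p = 0.00893). Of 8 tested epithelial markers, the keratin genes Krt8 (0.50, adjusted p = 0.00716) and Krt19 (0.73, adjusted p = 7.24e-05) rose and Cdx1 fell. Their part in the values of F11r, Cldn2 and the desmosomal genes was not tested.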

How the data were processed

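RNA from 14 labelled entries was hybridised to Illumina arrays. The authors' deposited table gives, for 45281 probes, a ratio per entry, and the values show that each ratio is a log value divided by the probe's median in its series. Multiplying by the divisor that returns steps of 0.01 (searched from 6.0 to 16.0, smallest taken where several met it) recovered 45248 probes, and 33 were left out. Only 5801 probes had 1 divisor in both series. The log base was taken as 2 from the range of 6.35 to 15.23. Of 4000 simulated probes, 3987 had settled divisors and 100.0% of these were exact. The simulated probes had the same mean in both series, and a divisor was kept only where it was also the closest between series. Real probes can differ between series, so this does not show that their scales are right. Background correction and normalization by the authors are not given in the sources used here. After sorting each array, values at the same rank lay within 0.02 for 99.94% of ranks in series 1 and 99.87% in series 2. From this the series were taken as normalized separately. Levels were therefore not tested between series, though the alternative with no series term pools them. The non-normalized table was not used, since its 28 value columns match no label.

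Recovered values were quantile normalized over all entries. Entries differing by at most 0.02 at every probe were taken as copies: 2 pairs met this (at most 0.0143), and other pairs reached 1.1671 or more. One pair carries 2 genotypes and the other 2 series, so the labels settle no group and all 4 entries were set aside. Probes above the 50th percentile (6.78) on at least 3 of 10 libraries were kept, 26342 in all, and 18906 were removed. Each gene was read through its brightest probe, 13418 genes in all. The platform annotation listed 34903 probes, of which 34885 had 1 symbol and 18 had several, and 10378 probes were unnamed. limma 3.58.1 in R 4.3.3 (lmFit and eBayes with a variance trend) was fitted with terms for series and genotype (7 residual degrees of freedom), and on the 4 groups for within-series values (6). P-values were Benjamini-Hochberg adjusted over all probes, with a threshold of 0.05. The number of arrays limits the precision.

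The genes and the lists were chosen with earlier results of these data known. In each related list, the named genes are those past the threshold over both series with 1 sign in both (at most the 6 largest), and the 2 brightest that did not pass. The gene most like each chosen gene is named, and for F11r the 3 most like it, by Pearson's r over the 10 libraries after centring each series. Alternatives changed the filter, the scaling, the entries used, the weights and the model, and left out each library in turn. Xist and Eif2s3y were named after their values had been seen.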

Additional observations from a re-analysis of the deposited data

Results flagged for a closer look

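Entries left out for their conflicting labels also carried values above all 6 Apc-deleted libraries. These comparisons run across both series, with the reservation made above for levels between series. The array deposited as Apc-Prox1-deleted series 1 replicate 3 and as Apc-Prox1-deleted series 2 replicate 2 read 9.46 and 9.47 for F11r (highest Apc-deleted library 8.55), 11.18 and 11.19 for Cldn2 (10.06), 13.21 in both entries for Cldn4 (13.11) and 6.94 in both for Cgn (6.93). This Cgn value, near the floor, lay below every kept Apc-Prox1-deleted library (lowest 6.97). Below every Apc-deleted library lay its Cldn3 (11.62, lowest 11.71), Cldn7 (8.87, lowest 8.94) and brighter Prox1 probe (9.17, lowest 9.42). The array deposited as Apc-Prox1-deleted series 1 replicate 4 and as Apc-deleted series 2 replicate 2, whose labels give both genotypes, read 8.91 for F11r, which lies between the highest Apc-deleted library (8.55) and the lowest Apc-Prox1-deleted one (9.33). It read 10.25 for Cldn2. Its brightest Cldn15 probe (9.36) and its Tjp1 (6.77) lay below the lowest Apc-deleted library (9.37 and 6.82). Its brighter Prox1 probe read 9.55, where Apc-deleted libraries span 9.42 to 10.91 and Apc-Prox1-deleted ones 7.85 to 9.53.

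The brightest Cldn15 probe and the Tjp1 probe had genotype differences of opposite sign in the 2 series, with every library of each genotype on 1 side. For Cldn15 the differences were -0.50 in series 1 and 0.49 in series 2, and for Tjp1 they were 0.13 and -0.08. The difference between the series was not tested for these genes. Gja1 rose more in series 1 than in series 2, with a difference of the genotype effects of -0.71 (series 2 minus series 1, limma interaction term, adjusted p = 0.0389). In series 1 its genotype difference cannot be told apart from the sex-linked one.

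Within Apc-deleted series 1, the lowest library, not necessarily the same one, stood far below the other 3 in 2 of 42 groups of values tested so. The lowest library read 8.73 for Tjap1, with a gap to the next of 0.850 of the group's range, and 12.47 for Ctnna1, with a gap of 0.846, both above Dixon's critical value. Chance gives such a gap in about 1 in 20 groups, which is about the share found here.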

How the results depend on the processing

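Over both series 3353 probes passed the threshold, against 5096 with array weights, 917 with no series term and 1916 to 3852 with a library left out. In series 1 the count was 2191, against 4610 with array weights and 738 to 2610 with a library left out. The lowest counts came without Apc-Prox1-deleted series 1 replicate 2 (1916 and 738), and replicate 1 of that group gave 2086 and 771. In series 2 the count was 1085, against 372 with cyclic loess, 393 with no further normalization, 360 on the deposited ratios, 184 with all 14 entries and 413 to 1260 with a library left out (413 without Apc-Prox1-deleted replicate 1, 466 without Apc-deleted replicate 1). In the related lists 12 genes were called higher, against 3 with no series term and 6 to 13 with a library left out. In those lists 4 genes were called lower, against 2 with no filter, 2 on the deposited ratios, 0 with no series term and 1 to 5 with a library left out. For these lists, leaving out a library, the block and dropping the series term were chosen after seeing the data. The test of the difference between series gave 148 probes. In their deviations from the group mean, same-numbered libraries correlated at -0.025 and 0.191 in series 1 and 0.091 in series 2. With 2 Apc-Prox1-deleted libraries in a series these deviations mirror each other, so the values cannot tell whether the numbers pair the samples. With the replicate block 1996 probes passed over both series, and in the related lists 7 genes were called higher and 2 lower. The cause of these changes was not tested. Background correction was not run, because the columns it needs match no label. Dim probes such as those of Tjp1 and Cgn lie near the floor on the scale taken, which limits how large a difference they can show.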
